A study of Homo sapiens with 11 samples.

Results

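The genes described here are 10 human genes of the antiviral programme that type I interferon switches on: IFIT1, IFIT2, IFIT3 and IFIT5, MX1 and MX2, the ubiquitin-like modifier ISG15, and HERC5, HERC6 and USP18, which attach and remove it or are related to enzymes that do. They were chosen by symbol with earlier results of these data known, so shares of them set against all genes are descriptions only. All 10 were found among the 35303 rows of a table of RNA-seq read counts. The counts come from LX-2, an established human line derived from hepatic stellate cells, which make scar tissue in the injured liver. Cells received HIV-1BaL, a laboratory strain of the virus, at a multiplicity of infection (MOI) of 0.1 plus 1 µg per ml of lipoteichoic acid (LTA), a polymer from the walls of Gram-positive bacteria (HIV-1+LTA), or the virus alone at the same MOI (HIV-1), or neither (phosphate-buffered saline, PBS), each for 24 h. There were 3 libraries a group, and each of 3 batches gave 1 library of every group. No group had LTA without virus, so the values of HIV-1+LTA cells can be set against those of HIV-1 cells but not against LTA alone.

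Type I interferons are released by cells that sense a virus, bind the receptor IFNAR1/IFNAR2 on the same and neighbouring cells, and act through JAK1, TYK2 and transcription factors such as STAT2 and IRF9, which bind interferon-stimulated response elements in promoters. Genes such as these 10 are among their best known targets, and some of them can also be induced directly by interferon regulatory factors (IRFs) without interferon. In the liver, interferon-stimulated genes are well known from viral hepatitis.

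The libraries held 50.6 to 90.6 M counts, and the 10 genes had 84 to 3200 counts in a library. All 10 stellate cell markers examined were detected, with summed levels of 5287 to 7640 CPM (a gene's count scaled to the same total in every library) in HIV-1+LTA libraries, 5536 to 8560 CPM in HIV-1 libraries and 4817 to 8869 CPM in PBS libraries. The summed levels of 7 leukocyte markers were 0.632 to 1.93 CPM in HIV-1+LTA, 0.853 to 1.58 CPM in HIV-1 and 0.899 to 1.70 CPM in PBS libraries, those of 5 hepatocyte markers at most 2.08 CPM in any library, and those of 4 endothelial markers at most 2.12 CPM. The 4 cholangiocyte markers, KRT7 and SOX9 among them, summed to 25.0 to 37.1 CPM in HIV-1+LTA, 30.0 to 37.4 CPM in HIV-1 and 27.7 to 31.5 CPM in PBS libraries. Batch 3 stood apart from batches 1 and 2 over the whole transcriptome, and treatments are therefore compared within batches. In a bulk library fewer cells expressing a gene and less RNA of it per cell cannot be told apart.

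All 10 genes were expressed in PBS cells, that is without virus or LTA. Per kilobase of the canonical GENCODE transcript, the levels in PBS libraries were 11.6 ± 1.19 CPM per kb for IFIT3 (SD, n = 3), 9.82 ± 2.40 for IFIT5, 9.80 ± 1.41 for ISG15, 6.53 ± 3.18 for IFIT1, 5.85 ± 2.07 for IFIT2, 3.29 ± 1.16 for HERC6, 2.41 ± 1.18 for HERC5, 1.25 ± 0.125 for MX2, 0.936 ± 0.143 for MX1 and 0.843 ± 0.352 for USP18. Neighbours in this order differed by more than the larger of their SDs only for ISG15 over IFIT1, IFIT2 over HERC6 and MX2 over MX1. These means and SDs pool the 3 batches and so include the difference between batches. In PBS libraries IFIT2 had 27.8 CPM in batch 3 and a mean of 15.9 CPM in batches 1 and 2, and HERC6 7.54 and 14.9 CPM. The gap of IFIT2 over HERC6 was thus widest in batch 3, where IFIT1 lay above ISG15 per length. By the pooled means IFIT genes and ISG15 lay highest per length, and MX1 and USP18 lowest. The transcript behind the authors' count is not given in the sources used here, so the order holds for these lengths only.

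The 4 IFIT genes form a cluster on chromosome 10 of GRCh37 (hg19), all on the plus strand, from IFIT2 (chr10:91061803-91069028) over IFIT3 (chr10:91087754-91100725) and IFIT1 (chr10:91152380-91166244) to IFIT5 (chr10:91174325-91180754), each with 2 exons in its canonical transcript. MX2 (chr21:42733954-42781320) and MX1 (chr21:42798166-42831139) are neighbours on chromosome 21, and HERC6 (chr4:89300004-89364249) and HERC5 (chr4:89378270-89427314) on chromosome 4. ISG15 lies at chr1:948877-949920 and USP18 at chr22:18632937-18660164. Reads that map to USP18 can also map to its near-identical copy USP41, which had at most 1 count in a library, and IFIT1B, the closest relative of IFIT1, had at most 7. How the authors' counting treated shared reads is not stated, so USP18 values carry that uncertainty.

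Promoter sequence is shown because genes of this kind are known for a shared response element. Of the 10 genes, 7 were matched by symbol in the RefSeq promoter table (GRCh38.p14), with 10 promoters. The interferon-stimulated response element was searched for as GAAANNGAAA on both strands in the 250 bases before each annotated start. It was present in 7 of the 10 promoters, of 6 of the 7 genes, against 3.02% of all 35116 promoters of the table. Among 46 other interferon-stimulated genes listed for this comparison, 26 of 52 promoters (50.0%) held it. The capitals in the stretches printed here mark every match, in most cases as the reverse complement TTTCNNTTTC, since the element lies on the minus strand in all but ISG15. In HERC5 and in ISG15 a pair of matches overlap.
IFIT1: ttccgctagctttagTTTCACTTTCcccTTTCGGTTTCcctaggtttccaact
IFIT3 promoter 1: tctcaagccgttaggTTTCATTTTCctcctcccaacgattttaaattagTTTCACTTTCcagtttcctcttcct
IFIT3 promoter 2: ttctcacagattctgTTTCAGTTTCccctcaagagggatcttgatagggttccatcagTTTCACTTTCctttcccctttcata
IFIT5: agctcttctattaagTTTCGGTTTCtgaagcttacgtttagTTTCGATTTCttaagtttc
MX1 promoter 3: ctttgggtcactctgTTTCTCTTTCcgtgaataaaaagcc
ISG15: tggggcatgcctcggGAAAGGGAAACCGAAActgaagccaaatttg
HERC5: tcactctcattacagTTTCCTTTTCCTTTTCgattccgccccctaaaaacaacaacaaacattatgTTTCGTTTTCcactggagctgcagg

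All stretches are from the plus strand of GRCh38.p14. IFIT1 is shown at chr10:89392492-89392544, IFIT3 promoter 1 at chr10:89327826-89327899 and promoter 2 at chr10:89332420-89332502, and IFIT5 at chr10:89414508-89414567. MX1 promoter 3 is at chr21:41431839-41431878, ISG15 at chr1:1013369-1013414 and HERC5 at chr4:88456979-88457069. The promoter of HERC6 held no match, which says only that these letters are not in this window. The same repeat with a single spacer base, GAAANGAAA, was in 3 of the 10 promoters against 2.69% of all, namely IFIT3 promoter 2, where it overlaps an element with 2 spacer bases, and MX1 promoters 1 and 2. The gamma-activated site TTCNNNGAA was in 1 of the 10, MX1 promoter 3, where it overlaps the element printed above, against 6.57% of all promoters.

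**Figure D1:**
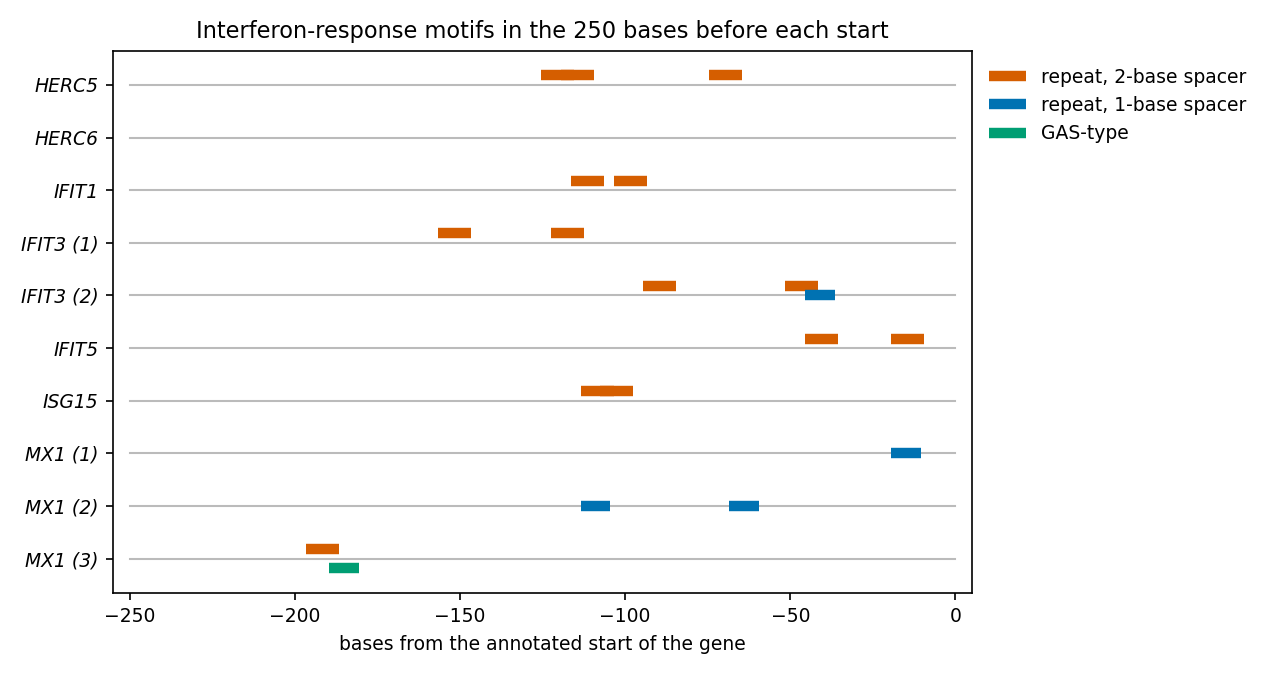
Position of each motif match in the 250 bases before the annotated start, for the 10 promoters of 7 genes in the RefSeq table (x axis, bases from the start; bars, matches on either strand). Matches with 2 spacer bases fall in 7 promoters, HERC6 has no match, and MX1 has the single GAS-type match.

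HIV-1+LTA cells were set against PBS cells to ask what virus and bacterial product together did. In the DESeq2 fit that gives the authors' deposited table, IFIT3, which binds and stabilises IFIT1, and ISG15, the modifier joined to proteins of infected cells, passed as higher in HIV-1+LTA cells. None of the 10 genes passed as lower. The main test, by edgeR, called none of the 10, and DESeq2 called none of them without batch 2 or without batch 3. The difference of IFIT3 was found mainly in batches 2 and 3, and that of ISG15 in all 3 batches. IFIT5, which binds RNA with 5′ phosphates, was nearly level in every batch.

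IFIT3 had 31.5, 40.3 and 44.4 CPM in HIV-1+LTA libraries of batches 1, 2 and 3, 31.0, 26.6 and 31.9 CPM in HIV-1 libraries, and 29.6, 24.4 and 28.9 CPM in PBS libraries. In CPM by library totals, every HIV-1+LTA library lay above every PBS library, and the batch 1 library by least. The edgeR fits also scale libraries by factors (TMM), 1.03 for HIV-1+LTA of batch 1 and 0.899 for PBS of batch 3. Divided by these factors, IFIT3 in HIV-1+LTA of batch 1 falls below PBS of batch 3. In batches 1, 2 and 3 its ratio of HIV-1+LTA to PBS was 1.06, 1.65 and 1.54. The log2 fold change was 0.42 (SE 0.0939) in edgeR's quasi-likelihood fit with batch as a block, with a Benjamini-Hochberg adjusted p = 0.205 over 16117 genes. The DESeq2 fit with the same block gave 0.41 (SE 0.100) and an adjusted p = 0.0137.

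ISG15 had 8.09, 10.3 and 9.26 CPM in HIV-1+LTA libraries, 6.83, 8.79 and 5.99 CPM in HIV-1 libraries, and 5.67, 7.27 and 5.77 CPM in PBS libraries. Its HIV-1+LTA libraries also lay above all PBS libraries, and unlike IFIT3 it was raised to a like extent in each batch, by 1.43, 1.41 and 1.60 times. The log2 fold change was 0.50 (SE 0.101, adjusted p = 0.205) by edgeR and 0.49 (SE 0.125, adjusted p = 0.0195) by DESeq2.

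IFIT1, which binds viral RNA that lacks the host's cap methylation, had 23.7, 28.9 and 56.2 CPM in HIV-1+LTA libraries, 24.0, 20.3 and 40.9 CPM in HIV-1 libraries, and 24.8, 16.4 and 43.1 CPM in PBS libraries. IFIT2, its partner in complexes with IFIT3, had 16.2, 24.2 and 40.1 CPM in HIV-1+LTA, 14.3, 15.9 and 31.9 CPM in HIV-1, and 17.2, 14.5 and 27.8 CPM in PBS libraries. In batches 2 and 3 both genes were highest in the HIV-1+LTA library, in batch 1 that library was slightly below PBS, and the groups overlapped. The log2 fold changes against PBS were 0.32 (SE 0.114) for IFIT1 and 0.34 (SE 0.110) for IFIT2, with edgeR adjusted p-values of 0.222 and 0.208. IFIT5 had 35.7, 33.0 and 47.4 CPM in HIV-1+LTA, 34.6, 34.1 and 49.9 CPM in HIV-1, and 35.3, 32.8 and 50.6 CPM in PBS libraries, a log2 fold change of -0.083 (SE 0.0570, edgeR adjusted p = 0.472) against PBS.

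MX2, a dynamin-like GTPase that blocks nuclear entry of HIV-1, had 4.92, 6.60 and 5.63 CPM in HIV-1+LTA libraries, 3.57, 4.37 and 4.31 CPM in HIV-1 libraries, and 4.19, 3.89 and 4.73 CPM in PBS libraries. In CPM by library totals, all 3 HIV-1+LTA libraries lay above the 6 others. Divided by the TMM factors, MX2 in HIV-1+LTA of batch 1 falls below PBS of batch 3. The fold change against PBS, 0.36 (SE 0.124), had an edgeR adjusted p = 0.218. MX1, the related GTPase known for blocking influenza virus, had 2.57, 4.17 and 2.47 CPM in HIV-1+LTA, 3.08, 2.40 and 2.28 CPM in HIV-1, and 2.36, 2.37 and 3.06 CPM in PBS libraries. Its single high library, HIV-1+LTA of batch 2, carries its mean of 3.07 ± 0.956 CPM in HIV-1+LTA against 2.60 ± 0.398 CPM in PBS libraries (SD, n = 3 each), and leaving that library out turned its edgeR log2 fold change of 0.18 (SE 0.215) to -0.13.

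HERC5, the main ligase that joins ISG15 to proteins in human cells, had 12.0, 12.7 and 6.62 CPM in HIV-1+LTA libraries, 11.2, 9.96 and 6.02 CPM in HIV-1 libraries, and 11.7, 9.90 and 3.79 CPM in PBS libraries. HERC6, its closest relative, which does that work in mouse, had 15.7, 20.3 and 8.71 CPM in HIV-1+LTA, 16.1, 14.7 and 7.37 CPM in HIV-1, and 16.0, 13.7 and 7.54 CPM in PBS libraries. The groups of both overlapped, and the batch 3 libraries were the 3 lowest. USP18, the protease that takes ISG15 off proteins and also damps signalling at the interferon receptor, had 1.84, 2.25 and 2.90 CPM in HIV-1+LTA libraries, 1.69, 1.71 and 2.96 CPM in HIV-1 libraries, and 1.35, 1.05 and 2.30 CPM in PBS libraries. USP18 was above PBS in each batch of HIV-1+LTA and of HIV-1 cells, but from counts of 84 to 184 a library. Against PBS the HIV-1+LTA log2 fold changes were 0.30 (SE 0.126) for HERC5, 0.20 (SE 0.0983) for HERC6 and 0.56 (SE 0.176) for USP18, with edgeR adjusted p-values of 0.269, 0.334 and 0.206.

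**Figure D2:**
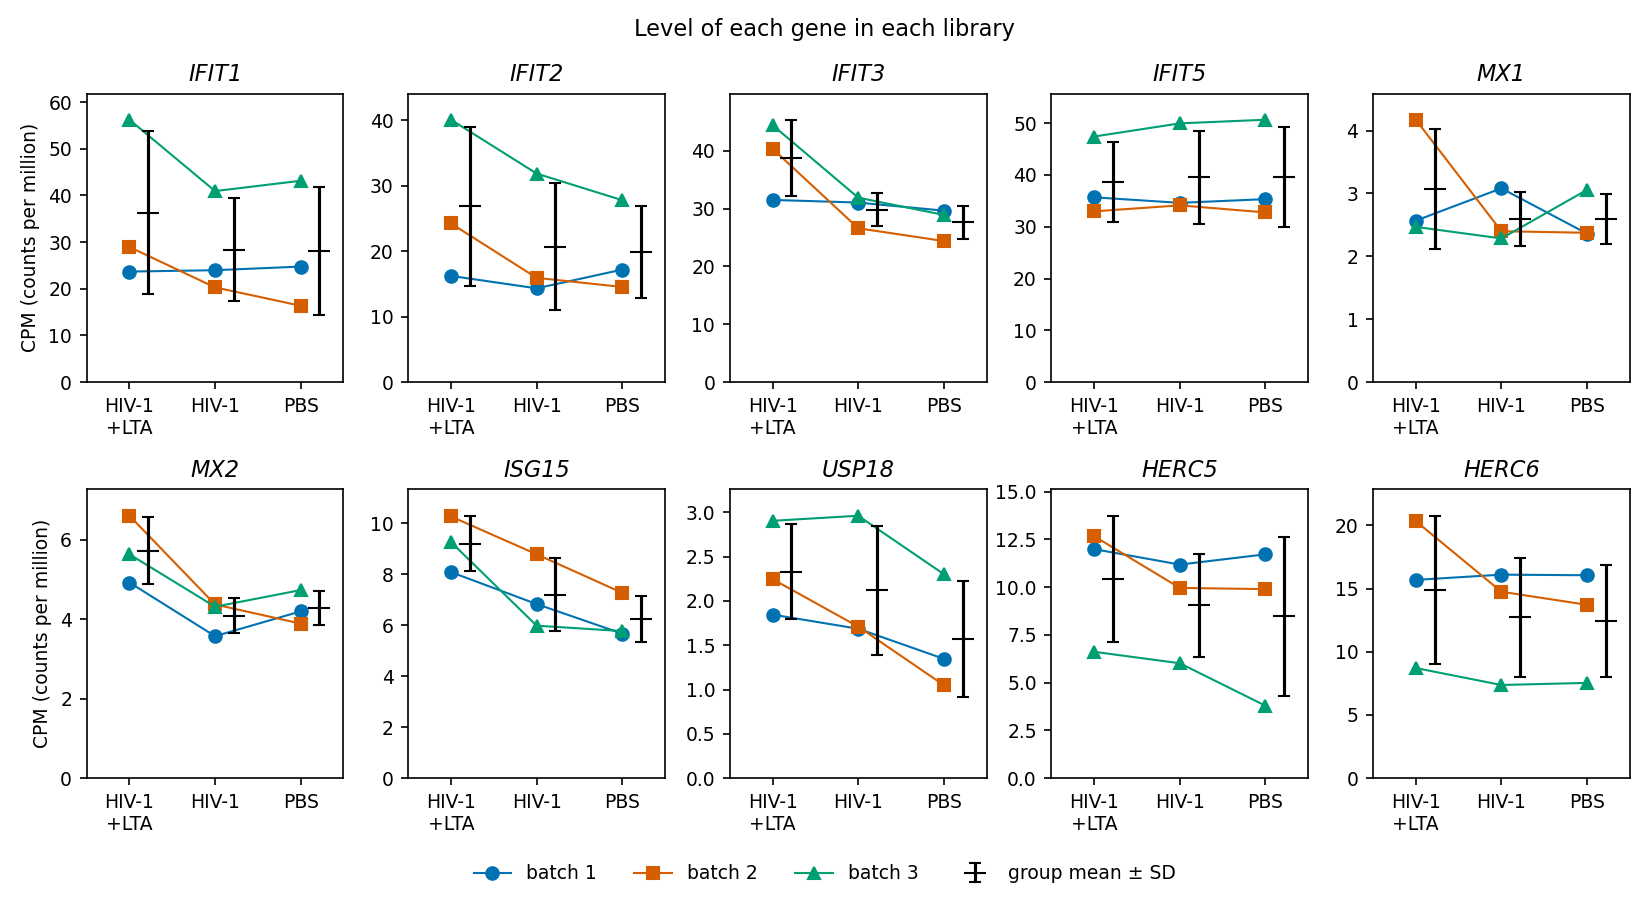
CPM of each gene (y axis, starting at 0) in the 9 libraries, by treatment (x axis); points joined by a line are of 1 batch, and black bars are the group mean with SD (n = 3). The lines of batches 2 and 3 stand highest at HIV-1+LTA for IFIT1, IFIT2, IFIT3, MX2, ISG15, HERC5 and HERC6, while batch 3 lies above the others for IFIT1, IFIT2, IFIT5 and USP18 and below them for HERC5 and HERC6 whatever the treatment.

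By the edgeR test 0 of the 10 genes passed for HIV-1+LTA against PBS, as did 0% of all genes, and limma-voom also called 0. By edgeR 7 of the 10 had an unadjusted p below 0.05, against 16.8% of all genes. DESeq2 with the block called 2 higher of 10, against 0.59% of the 19990 genes it tested, and edgeR without a filter on low counts called 4 (IFIT1, IFIT2, IFIT3 and ISG15), against 4.14% of all genes. The median log2 fold change of the 10 was 0.33, with 9 above 0, beside a median of 0.00164 over all genes tested. Higher in every batch, in CPM by library totals, were 5 of them (IFIT3, MX2, ISG15, USP18 and HERC5), against 25.0% of all genes. On the same measure 3 had groups that did not overlap (IFIT3, MX2 and ISG15), against 2.96% of all genes. Divided by the TMM factors, the groups of IFIT3 and MX2 overlap. The calls depended on which libraries were in the fit. Without the HIV-1+LTA library of batch 1, edgeR called 5 of the 10 (IFIT1, IFIT2, IFIT3, ISG15 and HERC6), against 16.2% of all genes, and without the PBS library of batch 1 it called IFIT2 (0.51, adjusted p = 0.0412), against 0.551% of all genes. Without all of batch 1, edgeR and DESeq2 each called 4 (IFIT1, IFIT2, IFIT3 and ISG15), against 10.7% and 8.38% of all genes. DESeq2 called none of the 10 without batch 2, where it called 0 genes, and none of them without batch 3, where it called 1 gene. These p-values measure the spread between libraries that the labels do not say came from separate cultures, and an exact two-sided permutation test of 3 against 3 libraries cannot go below p = 0.1, or p = 0.25 when labels are exchanged within batches alone.

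HIV-1+LTA cells were set against HIV-1 cells to ask what LTA added in the presence of virus. IFIT3 passed in the DESeq2 fit with the block (0.34, SE 0.101, adjusted p = 0.0412), as 1 of 10 higher against 0.895% of all genes. MX2 had the largest fitted difference, at 0.45 (SE 0.126, adjusted p = 0.187 by edgeR), was 1.38, 1.51 and 1.31 times as high in batches 1, 2 and 3, and was the only one of the 10 whose groups did not overlap, against 2.41% of all genes. ISG15 was at 0.33 (SE 0.102, edgeR adjusted p = 0.206), higher in every batch, and IFIT2 and IFIT1 were at 0.35 (SE 0.110) and 0.30 (SE 0.114), with edgeR adjusted p-values of 0.210 and 0.262. USP18 was at 0.14 (SE 0.175), HERC5 at 0.16 (SE 0.126), HERC6 at 0.20 (SE 0.0989), MX1 at 0.20 (SE 0.218) and IFIT5 at -0.059 (SE 0.0574), none of which passed.

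In that comparison edgeR and limma-voom each called 0 of the 10 genes, and 0% of all genes passed by edgeR. By edgeR 5 of the 10 had an unadjusted p below 0.05 (IFIT1, IFIT2, IFIT3, MX2 and ISG15), against 15.4% of all genes, and without a filter on low counts it called 4 (IFIT1, IFIT2, IFIT3 and MX2), against 4.02% of all genes. The median of the 10 was 0.25 with 9 above 0, beside -0.00382 over all genes. Higher in every batch, in CPM by library totals, were 5 of the 10 (IFIT2, IFIT3, MX2, ISG15 and HERC5), against 20.7% of all genes. Without the HIV-1+LTA library of batch 1, edgeR called 5 of the 10 (IFIT1, IFIT2, IFIT3, MX2 and HERC6), against 14.6% of all genes. Without all of batch 1, edgeR and DESeq2 each called 3 (IFIT1, IFIT2 and IFIT3), against 9.69% and 7.25% of all genes. DESeq2 called none of the 10 without batch 2, where it called 0 genes, and none of them without batch 3, where it called 1 gene.

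HIV-1 cells were set against PBS cells to ask what the virus did alone. USP18 had the largest fitted difference, and those of the other 9 lay between -0.095 and 0.17. By edgeR 0 of the 10 passed, as did 0% of all genes, and DESeq2 with the block (0.015% of all genes called) and limma-voom also called none of them. Of the 10, 1 (USP18) had an unadjusted p below 0.05, against 4.21% of all genes. USP18 was at 0.42 (SE 0.178, edgeR adjusted p = 0.946) and was 1.25, 1.63 and 1.29 times as high as in PBS cells in batches 1, 2 and 3. ISG15 was at 0.17 (SE 0.102) and IFIT3 at 0.081 (SE 0.0943). In CPM by library totals these 3 genes, against 22.0% of all, were higher in every batch. In batch 3 ISG15 was so by only 0.052 (log2, counting SE 0.11). With library totals 60.8% of all genes had an edgeR value above 0 in this comparison, against 49.2% with TMM. IFIT1 was at 0.022 (SE 0.114), IFIT2 at -0.010 (SE 0.111), IFIT5 at -0.025 (SE 0.0571), MX1 at -0.027 (SE 0.217), MX2 at -0.095 (SE 0.127) and HERC5 at 0.13 (SE 0.126), and HERC6 was level (0.000383, SE 0.0994). The median of the 10 was 0.011 beside -0.00151 over all genes. The HIV-1 values enter both this comparison and the one of HIV-1+LTA with HIV-1, and the PBS values enter both comparisons with PBS, so the 3 sets of fold changes are not independent.

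**Figure D3:**
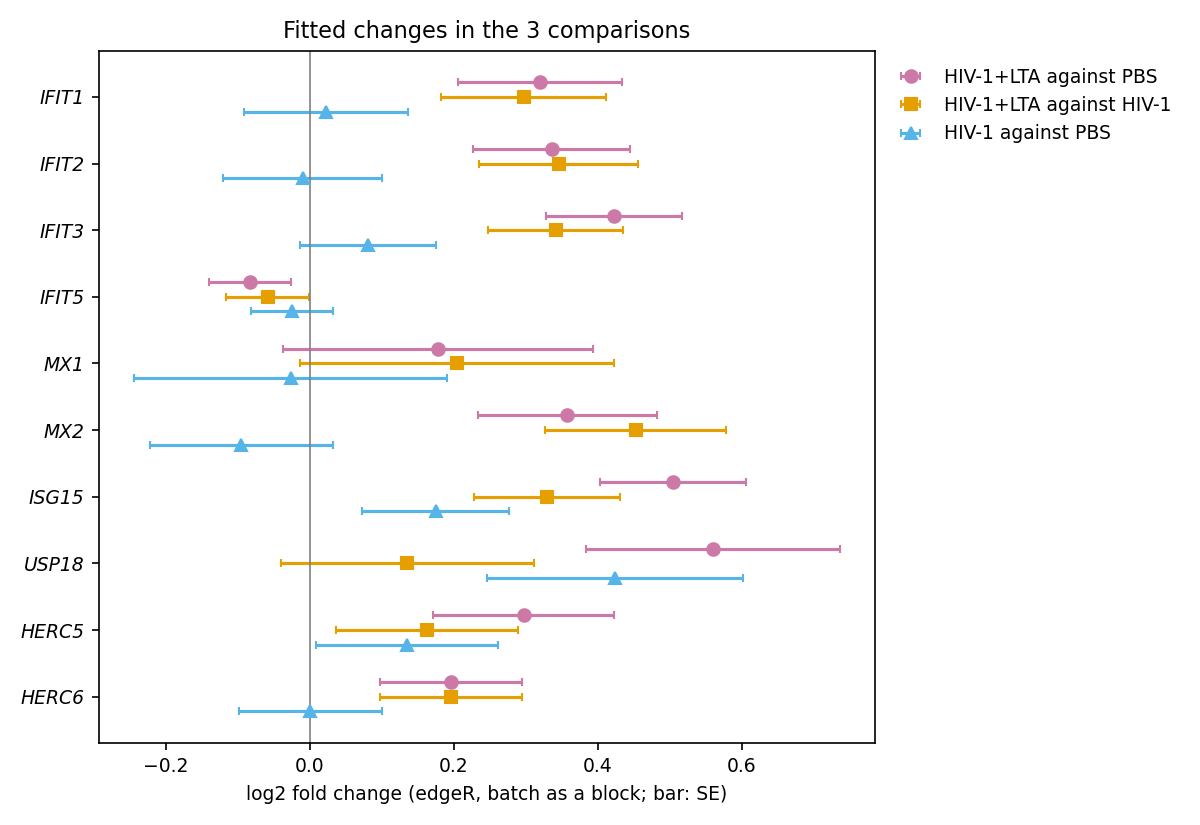
Log2 fold change (x axis; bar, SE) of each gene in the edgeR fit with batch as a block, for the 3 comparisons. Values of HIV-1+LTA against PBS and against HIV-1 lie to the right of 0 for 9 of 10 genes, those of HIV-1 against PBS lie within 0.17 of 0 for all but USP18, and IFIT5 lies left of 0 in all 3.

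The size of the HIV-1+LTA values differed between batches. The median difference of log2 CPM over the 10 genes between HIV-1+LTA and PBS libraries took the values 0.060, 0.73 and 0.36 in batches 1, 2 and 3, beside 0.00434, 0.0837 and 0.0730 over the 12955 genes that averaged 1 CPM or more. Against HIV-1 libraries it was 0.072, 0.49 and 0.29. In batch 1, IFIT1 (-0.063, counting SE 0.048), IFIT2 (-0.083, counting SE 0.058) and HERC6 (-0.033, counting SE 0.059) were no higher than in PBS, whereas in batch 2 they were at 0.82, 0.74 and 0.57. ISG15 (0.51) and USP18 (0.45, counting SE 0.19) were above PBS in batch 1 as well. The 39 other interferon-stimulated genes of at least 1 CPM had medians of 0.039, 0.64 and 0.54 in the 3 batches. With 1 library of each group in a batch, whether the batches differ was not tested.

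**Figure D4:**
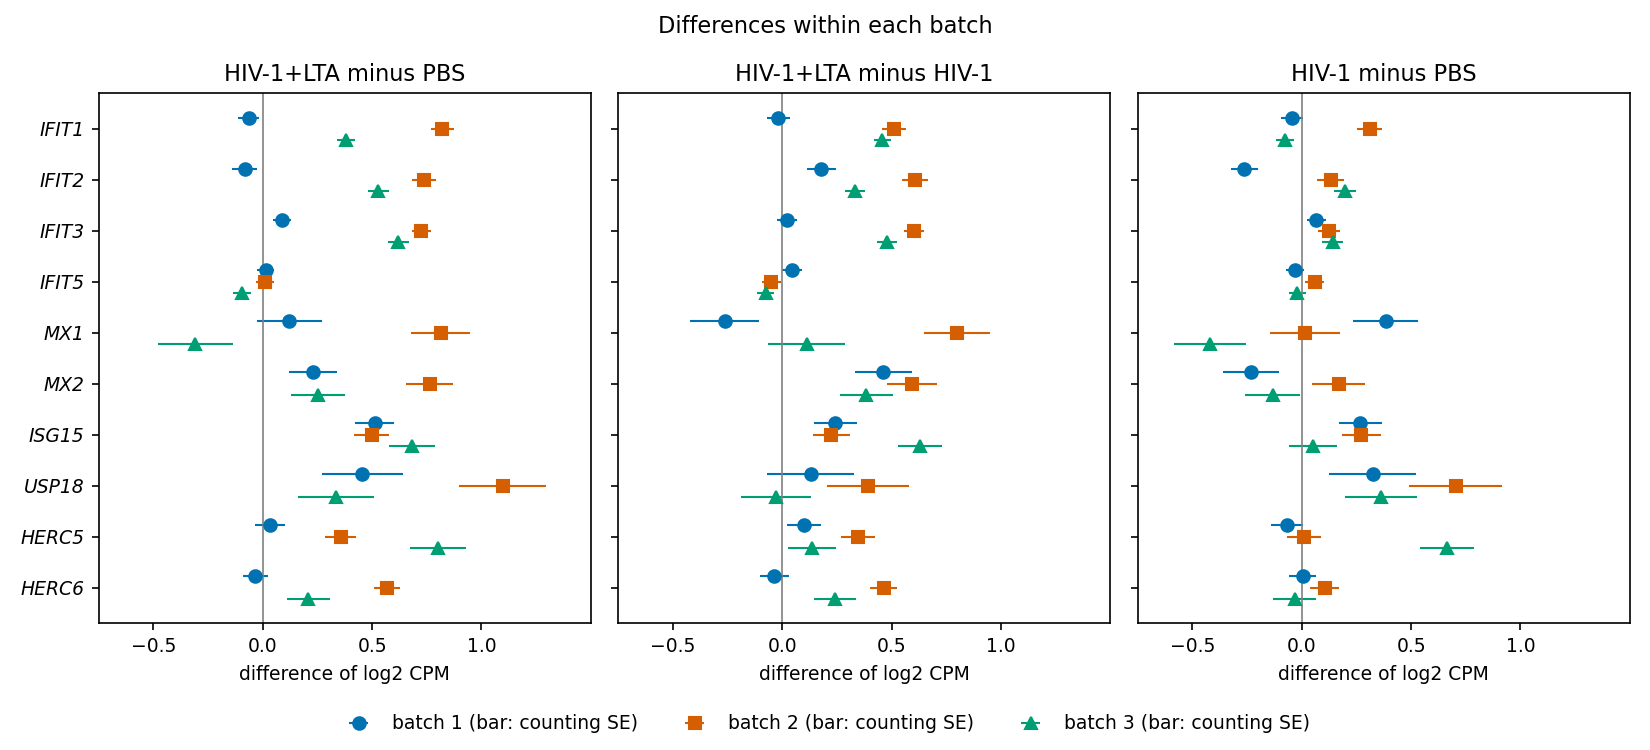
Difference of log2 CPM (x axis) between treatments within each batch, per gene (rows); bars are the counting standard error alone. For HIV-1+LTA minus PBS, batch 1 sits near 0 for IFIT1, IFIT2, IFIT3, HERC5 and HERC6 while batch 2 lies between 0.36 and 0.82 for these genes.

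For 6 of the 10 genes (IFIT1, IFIT2, IFIT5, USP18, HERC5 and HERC6) the fitted difference between batches was larger than any between treatments. In a contrast of batch 3 against batches 1 and 2 over all treatments, added after the data had been seen, edgeR called 71.2% of all genes, so a call there is common. Higher in batch 3 were 6 of the 10 genes (35.2% of all genes were), IFIT1 (1.18, SE 0.0951), IFIT2 (1.12, SE 0.0920), USP18 (0.91, SE 0.149), IFIT5 (0.69, SE 0.0485), IFIT3 (0.35, SE 0.0807) and MX2 (0.27, SE 0.108). HERC5 (-0.89, SE 0.116) and HERC6 (-0.87, SE 0.0900) were lower, as were 36.0% of all genes, and MX1 (0.065, SE 0.190) and ISG15 (-0.00342, SE 0.0891) did not pass. IFIT1 and IFIT2 thus differed between batches in the direction opposite to HERC5 and HERC6, while all 4 had fitted values above 0 for HIV-1+LTA cells against PBS and against HIV-1 cells. Scaling by library totals alone moved the median of all genes in this contrast to -0.17, against -0.0141 with TMM, and the share of calls that were higher to 36.7%, against 49.4%. With that scaling IFIT3 (0.18, adjusted p = 0.0859) and MX2 (0.11, adjusted p = 0.416) did not pass, and MX1 was at -0.0979. MX2 passed under only 4 of 13 other settings, and the direction of the other 7 called genes held under all 13.

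**Figure D5:**
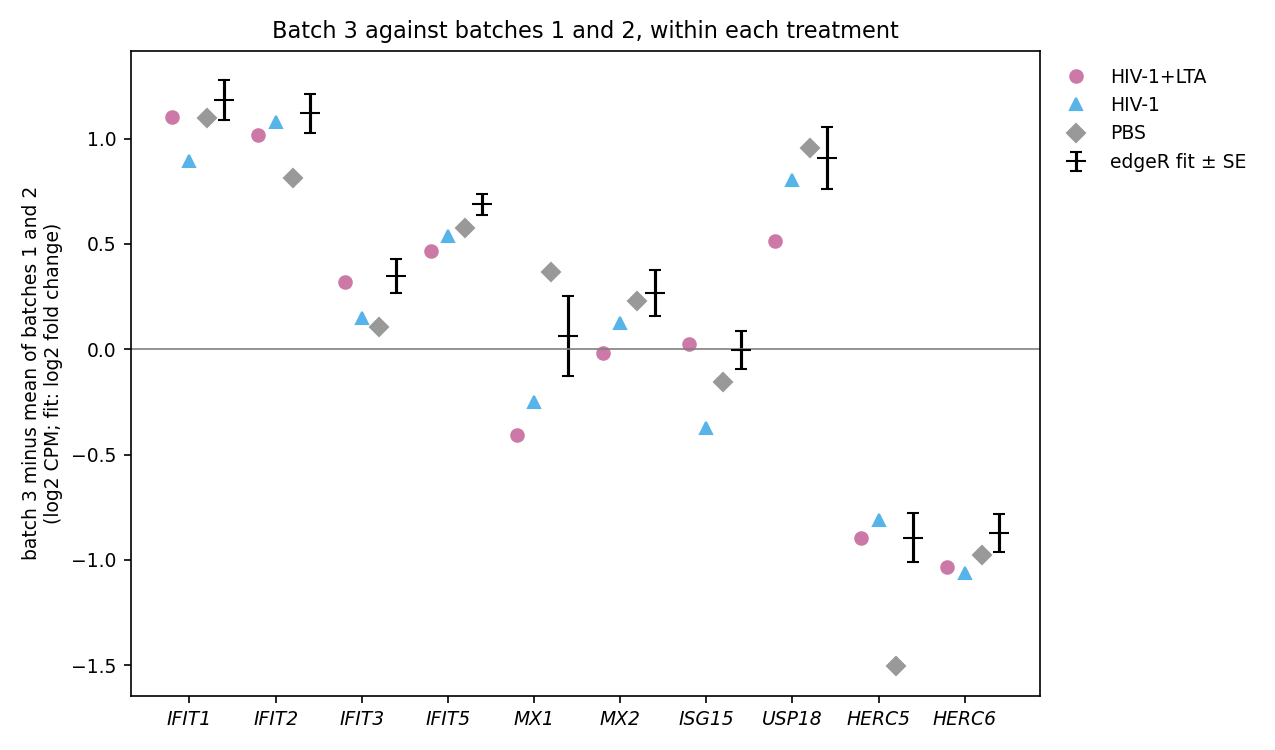
Batch 3 minus the mean of batches 1 and 2 (y axis, log2 CPM) for each gene within each treatment, with the edgeR log2 fold change and SE in black. The points use library totals and the edgeR values TMM scaling, so points and edgeR values differ in scaling. IFIT1 and IFIT2 lie above 0 and HERC5 and HERC6 below 0 in all 3 treatments, HERC5 and HERC6 between -1.51 and -0.81.

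Once each batch was centred on its own mean, the 10 genes were compared over the 9 libraries. IFIT1, IFIT2, IFIT3 and HERC6 followed each other most closely, with Pearson r of 0.91 to 0.97 between them. Over the 36 pairs of the 9 genes other than IFIT5 the median r was 0.72, from 0.00467 (MX1 with HERC5) to 0.97. IFIT5 gave r from -0.59 to -0.011 with the 9 others, and from -0.59 to -0.38 with IFIT1, IFIT2 and IFIT3, its neighbours on chromosome 10. It hardly varied within batches: its differences of log2 CPM between treatments were -0.095 to 0.059, with counting SEs of 0.038 to 0.045. The r values of IFIT5 therefore rest on small differences. These libraries share batches and treatments, centring leaves fewer than 9 independent values, and the values are descriptions. The mean profile of the 10 was highest in the HIV-1+LTA library of batch 2 (0.36 on the log2 scale), then in that of batch 3 (0.20) and that of batch 1 (0.071), and lowest in the PBS library of batch 2 (-0.28). The 5 other genes whose profile was most like it among 12945 were TDRD7 (r = 0.995), NTRK3 (0.994), DNAJC18 (0.989), MAP3K12 (0.987) and FTH1 (0.986), over 9 libraries. The 100 most alike of all 12945 genes held 4 of the 39 other interferon-stimulated genes, a larger share than of all genes.

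The remaining steps of the pathway were read off the same fits. The interferon genes themselves gave almost no reads: of 22, 15 had 0 counts in all 9 libraries, among them IFNB1, IFNG and IFNL1, and the sum of all 22 was 0.334 to 0.810 CPM in HIV-1+LTA, 0.414 to 0.692 CPM in HIV-1 and 0.243 to 0.773 CPM in PBS libraries. A count of 0 allows a level of up to 3 counts, which is 0.0331 to 0.0593 CPM in these libraries, and applies to the 24 h time point only. IFNE was the only one that passed edgeR's filter on low counts, DESeq2 tested 2 of the 22 and called neither, and the edgeR log2 fold change of IFNE for HIV-1+LTA against PBS was 0.19 (SE 0.329).

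Of 7 genes of the receptor and its signalling, edgeR and DESeq2 with the block called 0 in each treatment comparison. For HIV-1+LTA against PBS the lowest p of the 7 was that of TYK2 (0.18, SE 0.0650, edgeR adjusted p = 0.229). STAT2 was at 0.28 (SE 0.107, edgeR adjusted p = 0.235) for HIV-1+LTA against PBS and at 0.31 (SE 0.108, adjusted p = 0.236) against HIV-1. The medians of the 7 in these 2 comparisons were 0.065 and 0.073. For HIV-1 against PBS the median of the 7 was -0.028. Of 12 genes of sensing and IRF induction both tools called 0 as well, with medians of 0.17 for HIV-1+LTA against PBS, 0.11 against HIV-1 and 0.056 for HIV-1 against PBS. IRF3 (0.27, SE 0.0790, edgeR adjusted p = 0.205) and IRF1 (0.34, SE 0.116, adjusted p = 0.213), transcription factors that can drive interferon-stimulated genes, had the lowest p of the 12 for HIV-1+LTA against PBS. Of 8 inhibitors of interferon signalling none passed by either tool, and their medians were -0.049, -0.071 and 0.00430 for the same comparisons.

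Of 4 further enzymes that join ISG15 to proteins or are related to such enzymes, none was called by either tool in any treatment comparison. UBA7, the activating enzyme, was at 0.56 (SE 0.149, edgeR adjusted p = 0.205) for HIV-1+LTA against PBS and at 0.54 (SE 0.150, adjusted p = 0.187) against HIV-1. UBE2L6, the conjugating enzyme, was at 0.28 (SE 0.104) and 0.34 (SE 0.105), and TRIM25, a ligase that can also use ISG15, at 0.20 (SE 0.0699) and 0.19 (SE 0.0700). ARIH1 was level, at 0.00686 (SE 0.0504) and 0.011 (SE 0.0505). The medians of the 4 were 0.24 and 0.26, and for HIV-1 against PBS 0.00523.

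The list of 46 other interferon-stimulated genes was also chosen with earlier results of these data known. Of the 46, 43 were tested by edgeR, which called 0 in each treatment comparison. DESeq2 with the block called 14 higher and none lower of 45 tested for HIV-1+LTA against PBS, where 0.59% of all genes were higher. Against HIV-1 it called 15 higher and none lower, where 0.895% of all genes were higher. For HIV-1 against PBS it called none of the 45. The median edgeR log2 fold changes of the 43 in these comparisons were 0.37, 0.36 and 0.018, with 35, 37 and 22 of 43 above 0. Of all genes tested by edgeR, 50.4%, 48.9% and 49.2% were above 0. By DESeq2, PSMB9, an immunoproteasome subunit, was at 0.72 (SE 0.137, adjusted p = 0.00104) against PBS, and DDX60, a helicase of the antiviral response, at 0.64 (SE 0.121, adjusted p = 3.66e-04) against HIV-1. Among the stellate cell markers the same fit called VIM lower in both comparisons (-0.31, SE 0.0824 in each), and LOX lower (-0.33, SE 0.0940) and TIMP1 higher (0.32, SE 0.0941) against PBS. The part of these changes in the values of the 10 genes was not tested.

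A list of 166 ChIP-seq peaks from HIV-1-treated cells, for which no antibody is given and whose samples are labelled with the cell lines Lx3 and Lx5 although their titles name Lx2, held no peak in or within 10 kb of any of the 10 genes. The nearest peak was 1.21 Mb from USP18.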

How the data were processed

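For 9 RNA-seq libraries the authors deposited whole-number counts by gene symbol, besides a DESeq2 table and a peak list. Tools named in the submitters' processing notes are fastp, STAR, SAMtools, HTSeq, Bowtie2, bedtools and deepTools, with hg19 as the build; versions, strand setting and annotation release are not given in the sources used here. Per the file headers, the authors' table has a baseMean (mean signal over libraries), a log2 fold change, its SE, the Wald statistic (a score), and raw and adjusted p-values. It names no comparison; all of its 19990 log2 fold changes lie within 0.01 of a DESeq2 fit of HIV-1+LTA against PBS with batch.

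Counts were fitted with edgeR 4.0.16 (quasi-likelihood test, TMM, group and batch, all 9 libraries, 16117 genes kept by filterByExpr, Benjamini-Hochberg, called at an adjusted p below 0.05) in R 4.3.3; DESeq2 1.42.0 (total count of at least 10) and limma-voom (limma 3.58.1) were alternatives, and the scripts were tested on simulated data. An SE given with an edgeR value was computed as the absolute log2 fold change over the square root of the test's F statistic. DESeq2 reports its own SE. CPM used the library totals, unscaled. Within-batch differences are of log2 CPM. Intervals and floors cover counting error only.

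The replicate number is the batch number in the labels. The block rests on those labels. Deviations from group means correlated at 0.819 to 0.983 in the 9 pairs of libraries with the same number and at -0.943 to 0.895 in the 18 pairs with different numbers; the ranges overlap, and the negative values are pairs of batch 3 with batch 1 or 2. No 2 libraries of a group were copies: the chi-square of their counts was at least 12.5 times what sampling noise gives.

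The genes and lists were chosen with earlier results of these data known. All 10 genes are named; of each further list, called genes by lowest p (up to 4) or, where none was called, at most 2; and the 5 genes most like the mean profile. ARIH1, UBE2L6 and TRIM25, VIM, LOX and TIMP1, and IFNB1, IFNG and IFNL1, are named beyond that rule, after their values were seen.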

Additional observations from a re-analysis of the deposited data

How the results depend on the processing

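No gene was called in any comparison by edgeR with no replicate block or by limma-voom, and none of the 10 genes by any fit without the block. For HIV-1 against PBS, DESeq2 with the block called 3 genes, DESeq2 without it 1, edgeR without a filter on low counts 30 and edgeR on the groups compared only 2. For HIV-1+LTA against HIV-1 these were 244 (1 of the 10), 1, 1016 (4 of the 10) and 0, and for HIV-1+LTA against PBS 236 (2 of the 10), 0, 1045 (4 of the 10) and 0; the cause was not tested. Leaving out a library or a batch gave 0 to 46 genes and 0 of the 10 for HIV-1 against PBS, 0 to 2390 and 0 to 5 for HIV-1+LTA against HIV-1, 0 to 2648 and 0 to 5 for HIV-1+LTA against PBS, and 10282 to 11757 and 7 to 8 for batch 3 against batches 1 and 2.

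Under these alternatives no sign turned among values that passed a test. For HIV-1 against PBS, IFIT1 was -0.020 by edgeR and -0.033 by DESeq2 without the block; IFIT2 was 0.038 and 0.025 in those fits, 0.00913 by limma-voom, 0.016 with library totals and 5.46e-04 with only the groups compared; HERC6 was -0.012 by DESeq2 with and -0.00233 without the block, -0.00836 with RLE scaling and -0.00484 without a filter; IFIT5 was 0.00315 and MX1 6.34e-04 with library totals. MX1 was -0.0979 with library totals in the batch contrast. Leaving out a library or batch gave, for HIV-1 against PBS, -0.13 to 0.14 for IFIT1, -0.11 to 0.16 for IFIT2, -0.063 to 0.013 for IFIT5, -0.27 to 0.23 for MX1, -0.051 to 0.27 for HERC5, -0.096 to 0.064 for HERC6, and -0.067 to 0.14 for the median of the 10. For HIV-1+LTA against HIV-1 it gave -0.11 to 0.46 for MX1, -0.027 to 0.27 for USP18 and a median of 0.14 to 0.40. For HIV-1+LTA against PBS it gave -0.16 to 0.45 for MX1 and a median of 0.18 to 0.48, and for the batch contrast -0.20 to 0.23 for MX1 and -0.094 to 0.10 for ISG15. With 3 libraries a group and 1 per batch, no treatment effect could be tested within a batch, and the lowest counts (MX1, USP18) carry the widest errors.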
